A study of Mus musculus with 22 samples.

Results

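The genes described here are 54 mouse genes that encode histone modifiers, readers of histone marks and chromatin remodelers, out of 21887 protein-coding genes. They were taken from a list of names, a rule that uses no measured value, although the list was drawn up with earlier results of these data known. The measurement is E2F3a CUT&RUN, a method that maps where a protein sits on DNA by tethering a nuclease to it through an antibody. It was done on nuclei of nucleus accumbens (NAc) punches from male and female wild-type C57BL/6J mice. Both groups were injected intraperitoneally in their home cages for 7 days, one with cocaine (20 mg/kg) and the other with saline. The labels list 7 E2F3a libraries after cocaine (2 female, 5 male) and 4 after saline (2 female, 2 male), and nuclei of each preparation were divided between the E2F3a antibody and control immunoglobulin G. The immunoglobulin libraries (4 after cocaine, 5 after saline and 2 whose labels conflict) were not analysed here. The deposited values are 1 peak list per treatment, pooled over both sexes, and a table of listed differential sites with values for 6 cocaine and 4 saline libraries that carry no names. Which of the 7 labelled cocaine libraries is not among the 6, and the sex behind each value, are not known. The nuclei came from whole tissue punches and the files hold no RNA, so the tissue label was not checked against cell type markers, and fewer occupied cells cannot be told apart from less occupancy per cell.

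E2F3a is an activator of the E2F family. It binds DNA with a DP partner, is held inactive by the retinoblastoma protein, and is best known for turning on the genes of DNA replication and the cell cycle. In the mouse NAc it has been studied as a regulator of transcription after cocaine. The genes in question act on nucleosomes. Methyltransferases and acetyltransferases write marks on histone tails, demethylases and deacetylases such as the sirtuins remove them, proteins with bromodomains and other reader domains bind them, Polycomb complexes keep genes silent, and remodelers use ATP to move or evict nucleosomes.

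A cocaine peak lay in or within 1 kb of 13 of the 54 genes, which is 24.1% against 9.79% of all protein-coding genes. A saline peak lay at 4 of them (7.41%, against 1.85% of all genes). At 3 of these genes, Kat6b, Baz1b and Tnrc18, a cocaine peak overlapped a saline peak by at least 1 base, against 1.31% of all genes. The cocaine list held 3467 peaks and the saline list 725. Cut to the length of the saline list, the cocaine list had a peak at 4 of the 54 genes. Lower sites, at which the authors' deposited table gives less E2F3a signal after cocaine with an adjusted p below 0.05, were assigned to 6 of the genes (Arid1a, Auts2, Brd2, Epc1, Kat6b and Tnrc18), which is 11.1% against 1.85% of all genes. No member had a higher site, against 1.06% of all genes. The remaining 39 genes had neither a peak nor a called site. A test of these shares was not made. Each peak list pools its libraries. The 54 genes were listed with earlier results of these data known, so the shares are a description.

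The genes are long, which gives a peak more room to fall in one. Their median length was 66.8 kb, from 7.74 kb at Kat2a to 1106 kb at Auts2, while that of all protein-coding genes was 17.2 kb. Between the quartiles of the members' lengths (33.9 and 108 kb), 5 of 26 had a cocaine peak (19.2%), against 12.4% of all genes of those lengths. A count at start sites leaves the rest of the gene out. Of the 41 members with a start site listed by RefSeq, 6 had a cocaine peak within 1 kb of it (Kmt2c, Setd1a, Kat6b, Brd2, Baz1b and Tnrc18), against 6.08% of all such genes. For saline peaks the number was 3 (Kat6b, Baz1b and Tnrc18), against 0.960% of all such genes. A second set of 132 chromatin genes, chosen by class and not among the 54, had a cocaine peak at 34 (25.8%) and a saline peak at 9 (6.82%), close to the shares of the members. That set had a lower site at 2 genes (1.52%, against 1.85% of all genes) and a higher site at 1. Shares of genes with a lower site were not compared among genes of like length.

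**Figure D1:**
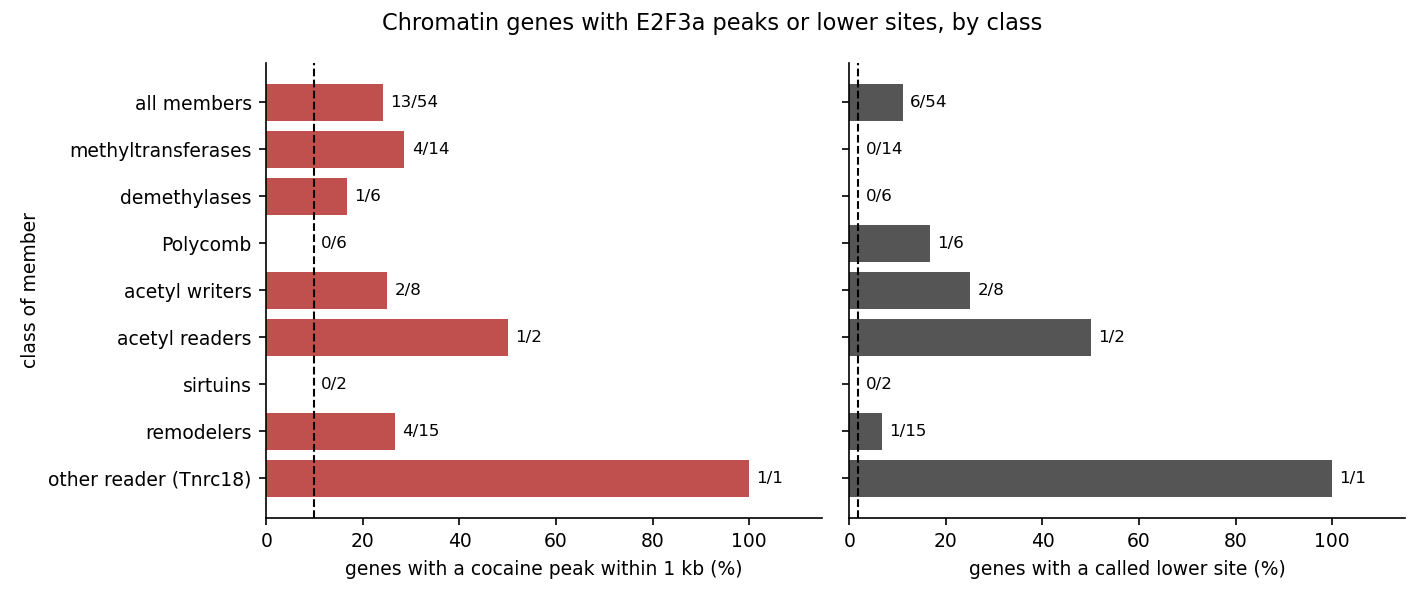
Percentage of member genes with a cocaine peak in or within 1 kb of the gene (left) and with a called lower site (right), by class, with counts at the bars. Dashed lines mark all protein-coding genes (9.79% and 1.85%). Polycomb genes and sirtuins had no cocaine peak, and the class of other readers is the single gene Tnrc18.

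The promoters of most members are rich in CG dinucleotides. Over the 250 bases before each start site that RefSeq lists for them (53 windows on build GRCm38.p6, the primary assembly of which is mm10), the median GC content was 67.6%, against 52.4% in all 32851 windows, and the median number of CG dinucleotides was 23.0 against 6.00. A cocaine peak lay within 1 kb of 9 member start sites (17.0%), against 4.56% of all start sites. Among start sites with a GC content between the quartiles of the member windows (56.4 and 73.6%), it was 6 of 27 member start sites (22.2%) against 8.89% of all. Several of these start sites belong to the same gene, so they are not independent. Of those 6, 3 are start sites of Brd2, and the others belong to Baz1b, Setd1a and Tnrc18. Of the member windows, those near a cocaine peak had a median GC content of 70.4% and the others 67.6%.

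6 promoter windows are printed to show promoters of the group with and without a cocaine peak. A promoter without a listed peak may still hold E2F3a signal. The windows of Brd2, Tnrc18, Baz1b and Setd1a overlap a cocaine peak. That of Arid1a lies mostly in a called site without a peak, and that of Suz12 holds an E2F letter match without a peak. Each runs 5′ to 3′ toward the start site, and capitals mark matches on either strand to an octamer of the E2F consensus (TTTCCCGC, TTTCGCGC, TTTGCCGC or TTTGGCGC) or to GGCGGG, the core letters of the Sp1 GC box.
Brd2, chr17:34119901-34120150, minus strand: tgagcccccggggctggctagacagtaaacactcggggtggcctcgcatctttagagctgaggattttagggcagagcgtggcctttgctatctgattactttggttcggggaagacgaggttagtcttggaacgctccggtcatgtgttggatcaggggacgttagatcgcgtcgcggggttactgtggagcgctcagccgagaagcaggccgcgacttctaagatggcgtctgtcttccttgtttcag
Tnrc18, chr5:142817663-142817912, minus strand: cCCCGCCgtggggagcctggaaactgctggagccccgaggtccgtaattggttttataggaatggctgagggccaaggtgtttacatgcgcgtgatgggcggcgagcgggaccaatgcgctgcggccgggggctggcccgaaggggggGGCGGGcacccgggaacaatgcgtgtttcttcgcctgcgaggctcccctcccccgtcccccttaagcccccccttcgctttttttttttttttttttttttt
Baz1b, chr5:135187073-135187322, plus strand: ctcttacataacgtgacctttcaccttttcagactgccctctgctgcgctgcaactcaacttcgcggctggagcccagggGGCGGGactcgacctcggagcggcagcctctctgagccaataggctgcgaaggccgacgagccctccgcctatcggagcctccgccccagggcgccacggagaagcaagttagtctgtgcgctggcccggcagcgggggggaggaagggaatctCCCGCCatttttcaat
Setd1a, chr7:127777139-127777388, plus strand: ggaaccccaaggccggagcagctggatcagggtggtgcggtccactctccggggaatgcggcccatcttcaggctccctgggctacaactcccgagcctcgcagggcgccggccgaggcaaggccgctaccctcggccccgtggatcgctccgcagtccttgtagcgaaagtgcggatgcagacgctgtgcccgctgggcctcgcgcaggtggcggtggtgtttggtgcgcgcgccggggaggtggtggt
Arid1a, chr4:133756770-133757019, minus strand: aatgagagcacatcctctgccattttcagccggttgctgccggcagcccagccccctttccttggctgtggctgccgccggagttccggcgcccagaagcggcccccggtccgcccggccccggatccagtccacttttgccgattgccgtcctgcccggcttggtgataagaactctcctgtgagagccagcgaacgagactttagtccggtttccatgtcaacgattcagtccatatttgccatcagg
Suz12, chr11:79992856-79993105, plus strand: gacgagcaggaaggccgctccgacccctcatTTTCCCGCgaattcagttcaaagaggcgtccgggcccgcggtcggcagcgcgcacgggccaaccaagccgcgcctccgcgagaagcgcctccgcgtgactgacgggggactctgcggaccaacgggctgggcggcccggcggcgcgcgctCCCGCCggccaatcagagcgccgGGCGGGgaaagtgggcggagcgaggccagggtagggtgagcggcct
An E2F octamer was present in 4 of the 53 member windows (7.55%), against 1.86% of all windows. Those were 1 window each of Arid1a, Kat2a, Suv39h1 and Suz12, none of which had a cocaine peak. The Arid1a octamer is in the window of another start site (133753985), 55 bp before it, and that of Suz12 begins 219 bp before the start. Without the first T of each octamer, 6 member windows matched (11.3%), against 7.89% of all. None of the 9 member windows with a cocaine peak within 1 kb of the start held either form. GGCGGG was in 34 member windows (64.2%), against 32.5% of all. It was present in the printed windows of Tnrc18 and Baz1b and absent from those of Brd2 and Setd1a. A missing match says only that the letters are not in these 250 bases. Shares of windows with a match were not compared among windows of like GC content, and the member windows were richer in GC. The start sites of Arid2, Auts2, Baz1a, Chd1, Chd3, Chd7, Epc1, Kat6a, Kdm6b, Kmt2b, Kmt2e, Nsd1 and Setd1b had no window to match.

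Peaks are described by the authors' fold enrichment, a ratio of the signal to the local background, and by the −log10 of the q-value, the p-value adjusted for the number of regions. The cocaine list held 3467 peaks with a median fold enrichment of 4.88, and the saline list 725 with a median of 3.82. Overlap with the other list was found for 15.7% of the cocaine peaks and 77.5% of the saline peaks. At the members lay 18 cocaine peaks with a median fold enrichment of 5.02 and 4 saline peaks with a median of 3.26. 

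Of the 14 methyltransferase genes, 4 had a cocaine peak (28.6%, against 9.79% of all genes). All 4 were of the Kmt2 and Setd1 families, which write or bind methylated lysine 4 of histone H3. Kmt2e, whose protein binds that mark, had a cocaine peak over the start of the gene (chr5:23432687-23434261) with a fold enrichment of 7.31 and a −log10 q of 24.0, higher than 87.0% of the list. Its second cocaine peak lay in the gene (chr5:23435039-23435517, 5.30-fold). Setd1a, which encodes a writer of trimethylated lysine 4 at promoters, had a peak ending 78 bp before its start site (chr7:127776833-127777311), with a fold enrichment of 3.56. The peak at Kmt2c, an enzyme that methylates lysine 4 at enhancers, lay 355 bp before its start site (chr5:25499138-25499565, 4.30-fold). The peak at Setd1b, a paralog of Setd1a, had its summit 937 bp outside the gene (chr5:123140940-123141298, 4.53-fold) and also lies within 1 kb of Rhof. None of these peaks overlapped a saline peak. No methyltransferase gene had a saline peak (1.85% of all genes) or a called site (1.85% of all genes lower and 1.06% higher).

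The other genes of that class were listed without a cocaine peak. Kmt2a, Kmt2b and Kmt2d, all writers of methylated lysine 4, lay 1.61, 4.99 and 18.4 kb from one. The 4 writers of methylated lysine 9, a mark of silent chromatin, were Setdb1, Ehmt1, Ehmt2 and Suv39h1, and their nearest cocaine peaks were 86.4 to 305 kb away. Setd2 and Nsd1, which methylate lysine 36, and Dot1l, which methylates lysine 79, lay 87.6, 11.2 and 30.9 kb from one. The split was thus 4 of 7 Kmt2 and Setd1 genes against 0 of 4 lysine 9 genes and 0 of 3 others. It was made after the values were seen, and with counts this small it is a description. Among the 18 further methyltransferase genes outside the members, 7 had a cocaine peak.

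Kdm6b was the single gene with a cocaine peak among 6 demethylase genes (16.7%, against 9.79% of all genes). It encodes an enzyme that removes methyl groups from lysine 27 of histone H3, the Polycomb mark, and it had 2 cocaine peaks, at chr11:69417672-69418883 with a fold enrichment of 6.34 and at chr11:69411881-69412387 with 5.53. Neither overlapped a saline peak. Chd3, which encodes a remodeler of the NuRD complex, is its neighbour on chromosome 11 and had a peak of its own (chr11:69366375-69366746, 3.62-fold). Kdm1a, Kdm2b, Kdm4a, Kdm4c and Kdm5b, which encode demethylases of lysines 4, 9 and 36, had no peak, and the nearest was 39.7 kb away, at Kdm4c. Of 13 demethylase genes outside the members, 6 had a cocaine peak.

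**Figure D2:**
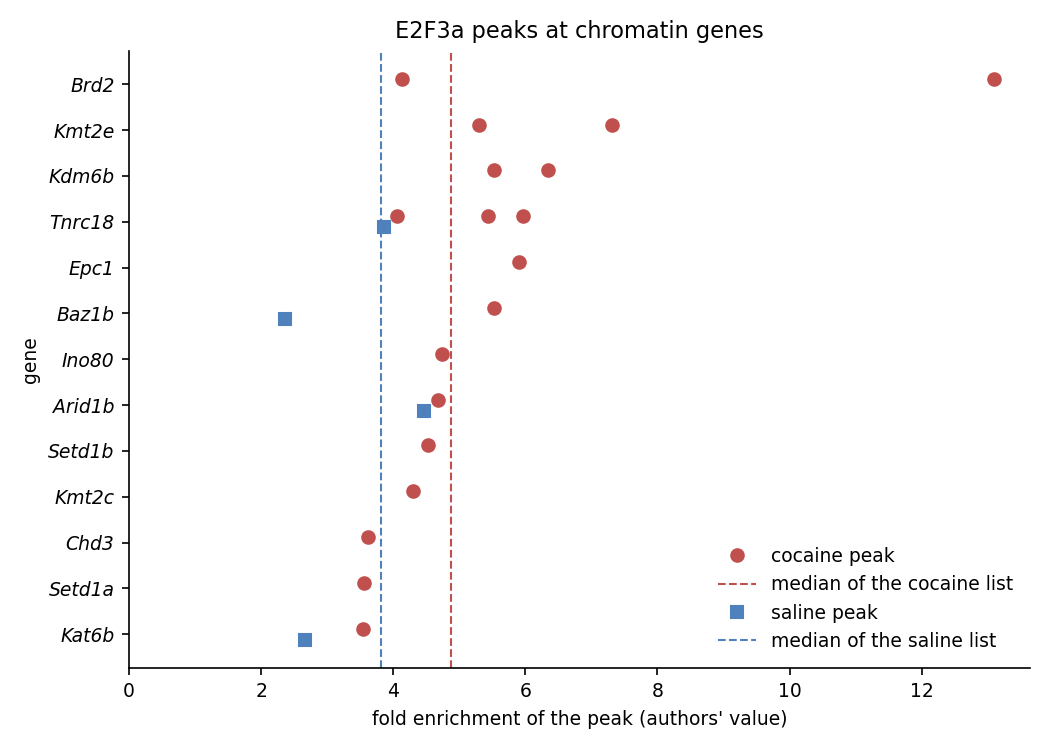
Fold enrichment of each peak of either list at the 13 members with a cocaine peak, as the authors computed it. Circles are cocaine peaks, squares are saline peaks, and dashed lines mark the median of each whole list (4.88 and 3.82). The Brd2 peak at 13.1 stands apart, and 4 members have a saline peak.

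The highest peak of the group was at Brd2, a BET protein whose bromodomains bind acetylated histones. Its peak at chr17:34119148-34120279 covered a start site, with a fold enrichment of 13.1 and a −log10 q of 36.6, above 98.8% of the cocaine list. The second Brd2 peak (chr17:34121047-34121647) had a fold enrichment of 4.13 and lay 100 bp from another start site of the gene. H2-DMa is within 1 kb of both. The nearest saline peak was 202 kb from Brd2. Brd3, the other BET gene on the list, was 381 kb from a cocaine peak.

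Among the 8 acetyl writers, which here include subunits of the enzyme complexes, Kat6b and Epc1 had a cocaine peak. That is 25.0%, against 9.79% of all genes. Kat6b encodes an acetyltransferase of histone H3. Its cocaine peak (chr14:21500329-21500737, 3.54-fold) lay 544 bp from a start site and overlapped a saline peak (chr14:21500644-21501059, 2.67-fold) by 94 bp. Epc1, a scaffold subunit of the NuA4 complex, had a peak of 5.90-fold inside the gene (chr18:6490173-6490796), 25.8 kb from its nearer end. Crebbp and Ep300, the paralogous coactivator acetyltransferases, were 328 and 77.7 kb from a cocaine peak. Kat2a and Kat2b, acetyltransferases of SAGA-type complexes, Kat6a, the paralog of Kat6b, and Brd1, a subunit that works with Kat6a and Kat6b, had none either (46.1 to 241 kb). The sirtuin genes Sirt1 and Sirt2 were 90.7 and 21.7 kb from a cocaine peak.

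Among the 15 remodeler genes, Arid1b, Baz1b, Chd3 and Ino80 had a cocaine peak (26.7%, against 9.79% of all genes). Baz1b encodes a subunit that works with the ISWI ATPase, and its cocaine peak (chr5:135186829-135187507, 5.52-fold, −log10 q 13.6) covered the start site. A saline peak of 2.36-fold (chr5:135186960-135187482) lay inside it over its whole length of 523 bp. Arid1b, a subunit of the BAF complex, had a cocaine peak (chr17:5146318-5147944, 4.68-fold) 152 kb from its start site, and a saline peak elsewhere in the gene (chr17:5158806-5159235, 4.46-fold) that did not overlap it. The peak at Ino80, the ATPase of the INO80 complex, was in the gene 81.1 kb from its start site (chr2:119396370-119396918, 4.74-fold). No cocaine peak was listed at Arid1a, Arid2, Smarca2, Smarca4 and Smarcc1 of the BAF and PBAF complexes, at Chd1, Chd4, Chd7 and Chd8, at Baz1a, or at Atrx. Arid2 was nearest to one (1.83 kb) and Atrx farthest (718 kb).

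None of the 6 Polycomb genes had a peak of either list. Of all genes 9.79% had a cocaine peak and 1.85% a saline peak, so none among 6 is close to those shares. Ezh1 and Ezh2 encode the methyltransferases of Polycomb complex PRC2, Suz12 and Eed its other core subunits and Bmi1 a subunit of PRC1, and their nearest cocaine peaks were 19.0 to 338 kb away. Auts2, which joins a variant PRC1 complex, was 921 kb from a cocaine peak, the farthest of all 41 members without one. Of 23 further Polycomb genes, 2 had a cocaine peak. Tnrc18, whose human protein reads trimethylated lysine 9 of histone H3, had more cocaine peaks than any other member. They were at chr5:142814492-142814826 (4.05-fold), chr5:142816820-142818816 (5.97-fold) and chr5:142819560-142820016 (5.44-fold). The middle one covered a start site and a saline peak (chr5:142817136-142817590, 3.86-fold) of 455 bp.

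The differential table asks whether the signal at a site differed between treatments. Its values are normalized counts, the reads of a library at a site scaled by the authors, and the library numbers used here follow the table and have no relation to the replicate numbers of the labels. A normalized count worth 1 read ran from 0.64 to 2.21 in the cocaine libraries and from 0.38 to 1.88 in the saline libraries. Recovered reads at all called sites ran from 46136 to 102377 and from 41102 to 152186, and saline 4 had the fewest. The members held 7 called sites, all of them lower after cocaine, while of all 947 called sites 474 were lower and 473 higher. The 7 sites belong to 6 genes, since Auts2 had 2 of them. Counted by gene, 405 protein-coding genes had a lower site (1.85%) and 233 a higher site (1.06%). With a share of 1.06%, the lack of a higher site among the members is close to the share of all genes. Of the 7 sites, 5 were annotated as promoters within 1 kb of a start. The promoter share of all called sites was not computed here. The authors chose the listed sites on these same libraries, so the exact permutation p given for each (two-sided, over 210 regroupings of the libraries, smallest possible value 0.0095) describes how far the libraries overlap and is no independent evidence.

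At the promoter site of Brd2 (chr17:34119502-34120500) the saline libraries had normalized counts of 133.08, 115.09, 133.52 and 142.81. The cocaine libraries ran from 80.4 through a median of 100.2 to 112. Every cocaine library was below every saline library. The means were 98.6 ± 10.3 (SD, n = 6) after cocaine and 131 ± 11.6 (SD, n = 4) after saline, and the log2 fold change in the authors' deposited table was -0.41 with an adjusted p of 2.5e-06, the smallest of all 474 lower sites. The exact permutation p was 0.0095. The fall is small beside the lower sites as a whole, whose median log2 fold change in the authors' deposited table was -1.13 (quartiles -1.37 and -0.93), and 1.27% of them fell by less. The site held more signal in saline than 98.7% of the lower sites. It overlaps the 13.1-fold cocaine peak, no saline peak was listed there, and the enrichment over background in the authors' deposited table was 3.93 after cocaine and 3.88 after saline. The peak lists and the counts thus point in different directions at this promoter.

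Tnrc18 resembled Brd2. Its site (chr5:142816902-142817900) overlaps a peak of each list and the printed window. The saline libraries had normalized counts of 80.93, 76.94, 88.25 and 77.04, and the cocaine libraries ran from 59.3 through a median of 65.9 to 76.5. The groups did not overlap, but the highest cocaine library was within 1 normalized count of the lowest saline library. Means were 67.4 ± 7.30 (SD, n = 6) and 80.8 ± 5.31 (SD, n = 4), with an exact permutation p of 0.0095. The log2 fold change of -0.26 in the authors' deposited table was the smallest fall of all lower sites, with an adjusted p of 1.4e-05.

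Arid1a encodes a DNA-binding subunit of the BAF remodeling complex. Its called site (chr4:133756802-133758300) lies 33 bp upstream of the start and contains most of the printed window. The saline libraries had normalized counts of 77.13, 68.04, 73.67 and 82.68, and the cocaine libraries ran from 30.1 through a median of 44.2 to 65.5. All cocaine libraries were below all saline libraries, and they spread more widely. Means were 45.7 ± 13.7 (SD, n = 6) and 75.4 ± 6.14 (SD, n = 4), a log2 fold change of -0.72 in the authors' deposited table (adjusted p 0.00056), with an exact permutation p of 0.0095. The nearest cocaine peak was 56.5 kb from the gene, so a strong saline signal here came with no peak in either list.

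Among the 7 sites the fall was steepest at Kat6b. This site (chr14:21517702-21518700) lies 827 bp from an annotated start and 17.0 kb from the cocaine peak and 16.6 kb from the saline peak of the gene. Normalized counts were 9.23, 16.53, 11.89 and 26.31 in the saline libraries, and in the cocaine libraries ran from 0.00 through a median of 6.34 to 8.32. The groups did not overlap, at low depth, with 0 to 8 recovered reads in a cocaine library and 14 to 31 in a saline library. Means were 4.85 ± 3.37 (SD, n = 6) and 16.0 ± 7.51 (SD, n = 4), with an exact permutation p of 0.0095. The authors' deposited table gives a log2 fold change of -1.72 and an adjusted p of 0.00024, and 94.7% of the lower sites fell by less.

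Auts2 had a pair of lower sites, both inside the gene (chr5:131437333-132543220). The one called the promoter site here is near an annotated start that lies within the gene, away from both of its ends. At the promoter site (chr5:131536602-131537800, 170 bp from an annotated start) the saline libraries had 16.29, 21.62, 20.72 and 50.73, and the cocaine libraries ran from 6.84 through a median of 10.4 to 19.9. Of the 6 cocaine libraries, 5 were below all saline libraries. The log2 fold change in the authors' deposited table was -1.27 (adjusted p 0.00029), means were 11.4 ± 4.49 (SD, n = 6) and 27.3 ± 15.8 (SD, n = 4), and the exact permutation p was 0.019. Saline 4 decided much of that value, since the log2 ratio was -0.78 without it, 1.62 times smaller.

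The intron site of Auts2 (chr5:132029102-132030200) had 15.75, 17.17, 11.51 and 31.94 in the saline libraries, and the cocaine libraries ran from 2.08 through a median of 7.42 to 13.3. The groups overlapped, with 4 of 6 cocaine libraries below all saline libraries. Means were 8.20 ± 4.01 (SD, n = 6) and 19.1 ± 8.90 (SD, n = 4), with an exact permutation p of 0.029. The authors' deposited table gives a log2 fold change of -1.22 and an adjusted p of 0.0014. Without saline 1, 2 or 4 the exact permutation p was 0.071.

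The site of Epc1 (chr18:6513302-6514500) lies 1.61 kb from an annotated start. The saline libraries had normalized counts of 20.64, 29.89, 13.81 and 45.10, and the cocaine libraries ran from 6.04 through a median of 11.9 to 18.6. Here 3 of 6 cocaine libraries were below all saline libraries. Means were 12.0 ± 5.57 (SD, n = 6) and 27.4 ± 13.5 (SD, n = 4), with an exact permutation p of 0.048 that rose above 0.05 when any of 7 of the 10 libraries was left out (cocaine 2, 3, 5 or 6, saline 1, 2 or 4). The highest such p was 0.12, without saline 2 or without saline 4. The authors' deposited table gives a log2 fold change of -1.19 and an adjusted p of 0.014.

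**Figure D3:**
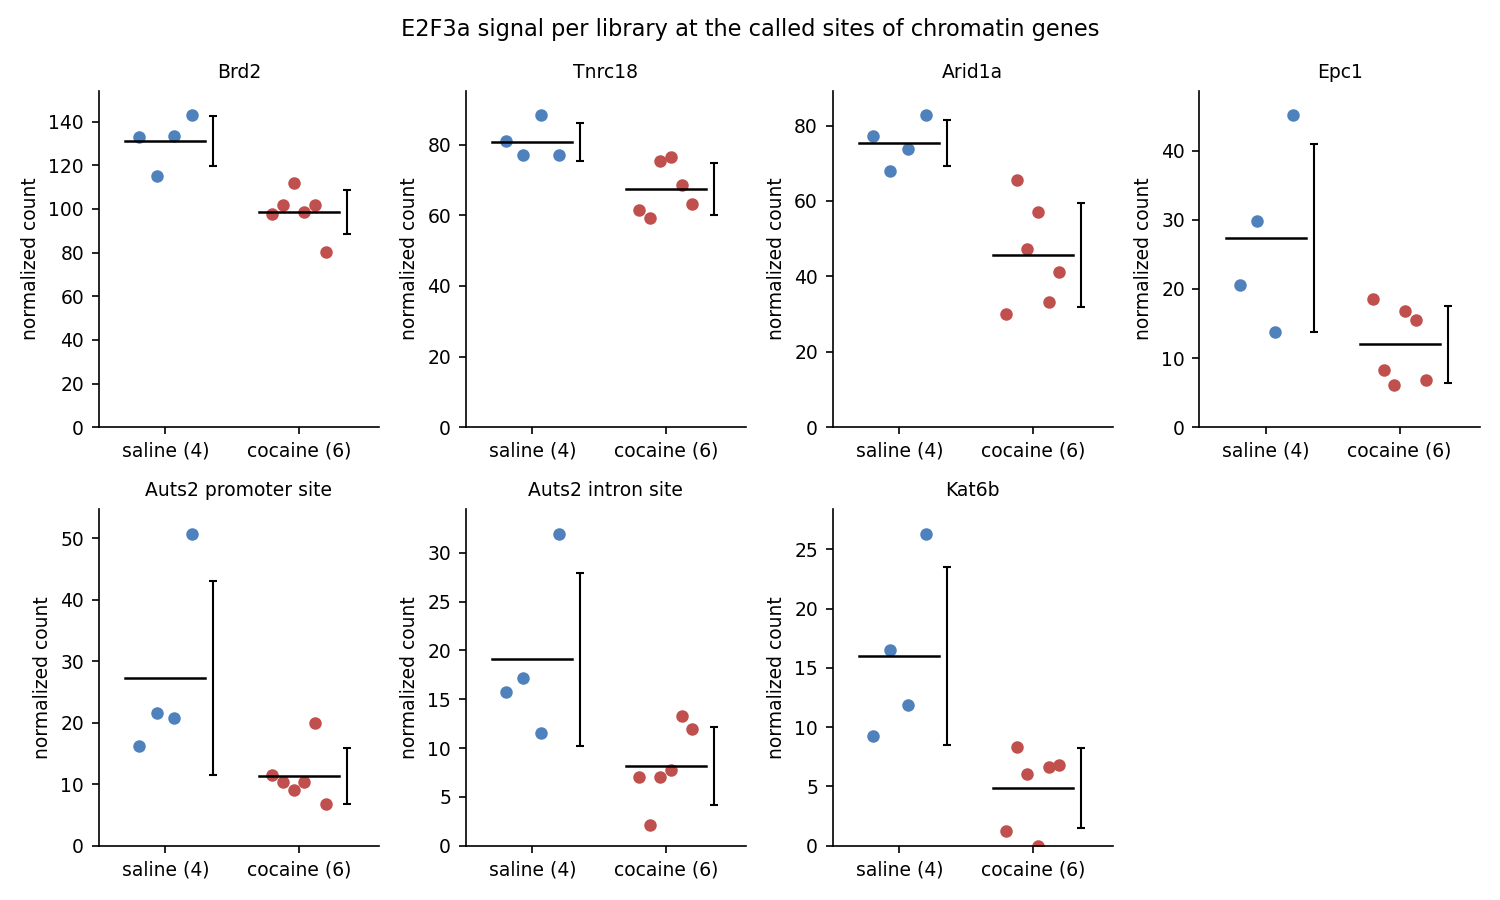
Normalized count per library at the 7 called sites of the members, with 4 saline and 6 cocaine libraries. Bars mark group means and whiskers 1 SD, and each vertical axis starts at 0. The groups are apart at Brd2, Tnrc18, Arid1a and Kat6b and overlap at Epc1 and at both Auts2 sites.

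The treatments were fully apart, with no cocaine library as high as any saline library, at 4 of the 7 sites, against 48.1% of all lower sites. The exact permutation p was below 0.05 at 7 of 7, against 90.3%. With limma on log2(normalized count + 1) over all called sites, the adjusted p was below 0.05 at 3 sites (both Auts2 sites and Kat6b), against 61.4%. With a quasi-Poisson test on recovered reads it was below 0.05 at 4 sites (Arid1a, Brd2, Kat6b and Tnrc18), against 73.4%. The Kat6b site alone passed both, with adjusted p-values of 0.044 and 0.035. Saline 4, the library with the fewest reads, was the highest library at 6 of the 7 sites and at 58.6% of all lower sites, and the part it played was measured by leaving it out. The median log2 ratio over the 7 sites was -1.19 with all libraries and -0.78 without it. Over all 474 lower sites the median was -1.14 and -0.99, and 99.8% were still lower.

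**Figure D4:**
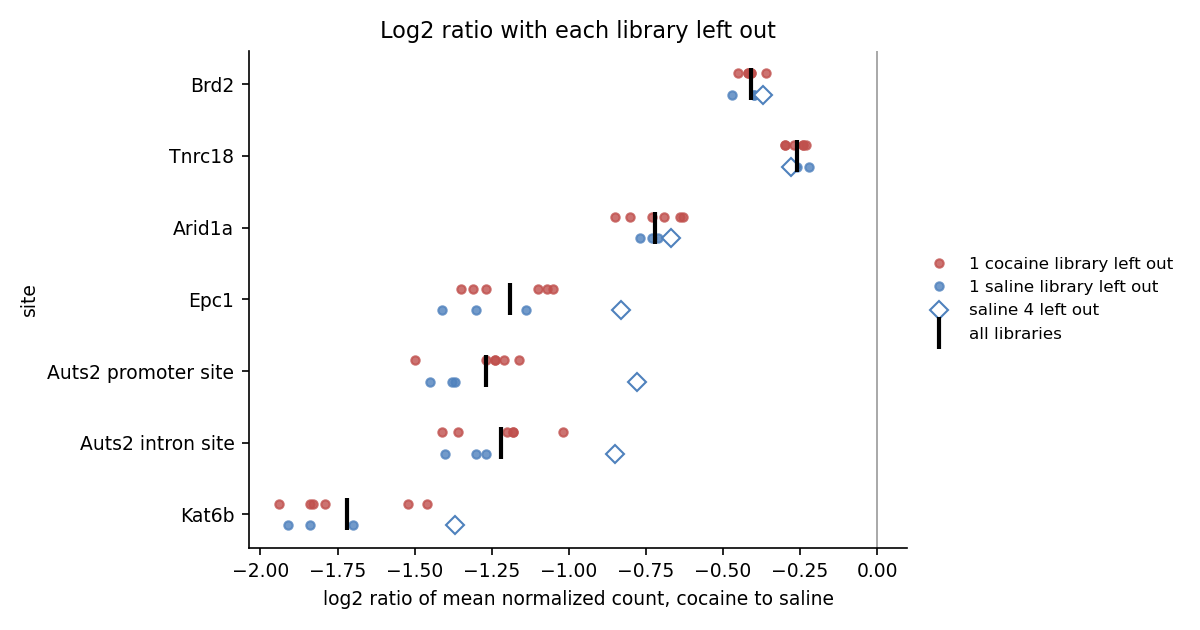
Log2 ratio of the mean normalized count, cocaine to saline, at the 7 sites with all libraries (black bar) and with 1 library left out at a time (circles, and an open diamond for saline 4). All values lie below 0, from -1.94 at Kat6b to -0.22 at Tnrc18, and the open diamond is nearest to 0 at Epc1, Kat6b and both Auts2 sites.

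Of the 7 called sites, 2 overlapped a cocaine peak (Brd2 and Tnrc18), while 7.59% of all lower sites did. The Tnrc18 site also overlapped a saline peak, as did 3.59% of all lower sites. The authors' enrichment over background in the deposited table was lower after cocaine at 6 of the 7 and not at Brd2. Among all 474 lower sites it was not lower at 43 (9.07%), so most lower sites shared that direction. It was 0.78 against 2.46 at the promoter site of Auts2 and 0.65 against 1.82 at its intron site, so there the cocaine value was below the authors' background. At Tnrc18 it was 3.69 against 3.71 and at Arid1a 2.32 against 2.5.

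**Figure D5:**
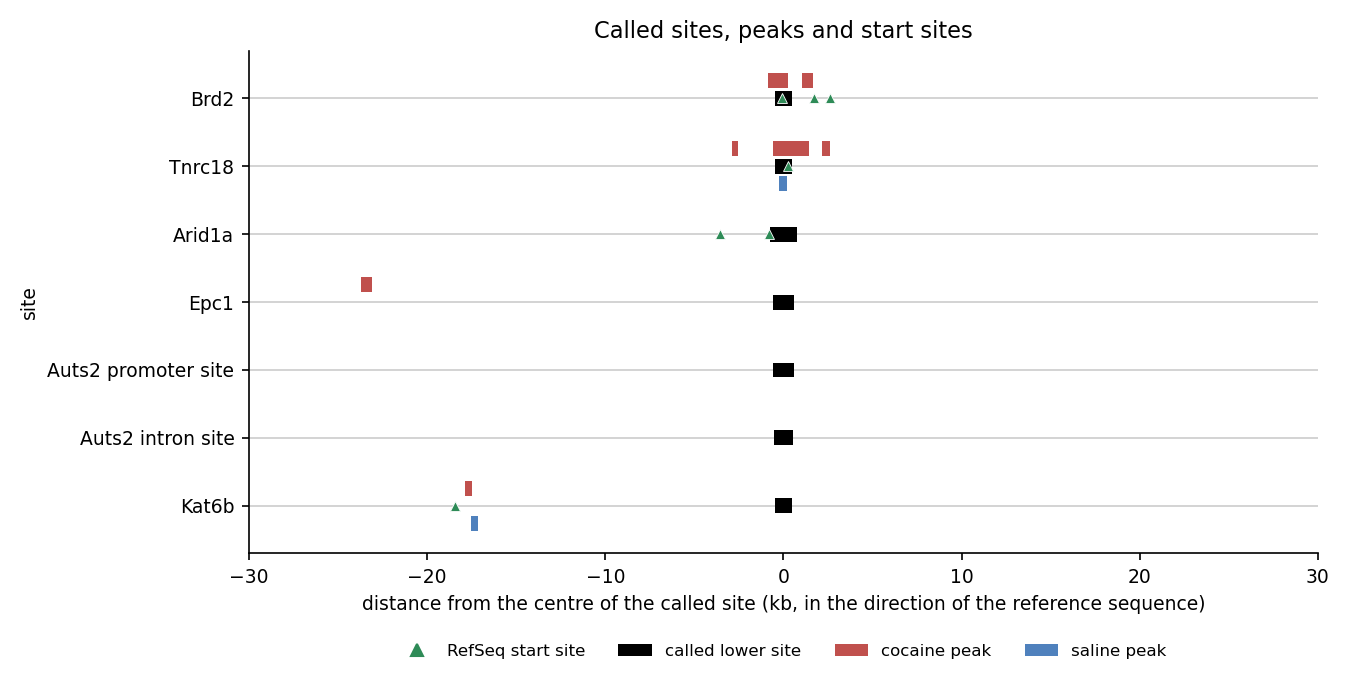
Called lower sites (black), cocaine peaks (red, above), saline peaks (blue, below) and listed RefSeq start sites (triangles) around the 7 sites, as the distance from the centre of each site in kb. Peaks meet the called site at Brd2 and Tnrc18, those of Kat6b and Epc1 lie elsewhere in the gene, and Arid1a and Auts2 have none. Auts2 and Epc1 have no start site in the RefSeq window table.

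Among the 132 other chromatin genes, Bahcc1, Prdm16 and Smarcd3 had a called site. Bahcc1, whose protein reads methylated lysine 27, had a lower site (chr11:120235302-120236500) with normalized counts of 20.4 ± 4.92 (SD, n = 6) after cocaine and 40.6 ± 13.8 (SD, n = 4) after saline, and an exact permutation p of 0.0095. It also had 4 cocaine peaks of 3.96- to 8.45-fold and 1 saline peak of 5.44-fold that overlapped none of them. Prdm16, a zinc finger regulator of cell fate, had a lower site and no peak (4.84 ± 4.26, n = 6, and 16.5 ± 7.64, n = 4, exact permutation p 0.029). Smarcd3, a BAF subunit, had the single higher site (19.9 ± 11.7, n = 6, and 8.38 ± 3.62, n = 4, exact permutation p 0.0095) and a cocaine peak of 4.86-fold. Overlapping peaks of both lists lay at Kmt5c, which methylates lysine 20 of histone H4 (13.9-fold after cocaine and 4.18-fold after saline), and at Kat7, an acetyltransferase (6.88 and 4.36). They also lay at Sirt4, a mitochondrial sirtuin (9.27 and 4.14), Carm1, an arginine methyltransferase next to AB124611 (6.79 and 3.07), and Cbx5, a heterochromatin protein next to Hnrnpa1 (6.27 and 3.15).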

How the data were processed

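E2F3a CUT&RUN was measured in NAc nuclei. The build is mm10, per the submitters' processing notes. Not given in the sources used here are the aligner, the peak caller's settings and how the control libraries entered. The authors deposited peak lists pooled by treatment, with fold enrichment (a ratio), pileup signal and −log10 p and q per peak, and a diffReps table with mean signal, log2 fold changes and p-values from a negative binomial test. Its normalized counts per library are joined in a cell. Within a library they were whole multiples of the value of 1 read (100.0% of values up to 20 reads, within 0.1 step), which gave the recovered reads. The labels do not say that libraries came from separate animals, so p-values measure the spread between libraries.

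Peaks in or within 1 kb of RefSeq gene bounds were assigned to genes, and called sites by the gene symbol of the table. Of 792 gene symbols matched in the table, 94.9% had the table's transcript inside the RefSeq gene within 1 kb. Exact permutation tests of the mean (pandas 2.3.3, numpy 2.4.6, Python 3.11.15), limma 3.58.1 in R 4.3.3 with a pseudocount of 1, and a quasi-Poisson test of reads were used. For the last 2, Benjamini-Hochberg adjustment was over all 956 listed sites. The pseudocount draws a ratio of low counts toward 1, and limma's fold change is a difference of mean log values, not the log2 ratio of the means. All members were named, in full those with a called site, a peak of each list or the highest fold enrichment. Other chromatin genes were named where they had a called site or peaks of both lists. The members and gene lists were chosen with earlier results of these data known. Total depth is unknown, since the table holds only listed sites.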

Additional observations from a re-analysis of the deposited data

Results flagged for a closer look

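Among 20 groups of libraries at the named sites, 3 held a library far from the others, where chance gives about 1 in 20. At the promoter site of Auts2, saline 4 had a normalized count of 50.73 while the next saline library had 21.6, and cocaine 5 had 19.91 while the next cocaine library had 11.5. At the lower site of Prdm16, cocaine 3 had 13.08 while the next cocaine library had 5.19. The part of depth in these values was not tested. 1 read was worth 1.88 in saline 4, 2.21 in cocaine 5 and 1.01 in cocaine 3.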

How the results depend on the processing

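The number of members with a cocaine peak was 13, and it moved most with stricter rules. It was 6 for peaks of at least 5-fold (Kmt2e, Baz1b, Tnrc18, Kdm6b, Brd2 and Epc1), 6 for peaks within 1 kb of a listed start site (which 8 of the 13 have), and 4 with only as many of the top cocaine peaks as there are saline peaks (Ino80, Kmt2e, Baz1b and Brd2). At that equal length the number was the same as that of members with a saline peak (4). Members with a saline peak went from 4 to 0 at a minimum of 5-fold. Members with overlapping peaks went from 3 to 1 (Baz1b) both with an overlap of 50% of each peak and with that shorter cocaine list. Members with a lower site went from 6 to 3 (Auts2, Epc1 and Kat6b) when a log2 fold change of 1 in size was required. With peaks touching the gene itself, within 5 kb, or at a q of at most 0.001, members with a cocaine peak were 10, 16 and 12. Shares of all protein-coding genes at these other cutoffs were not computed, apart from that at listed start sites (6.08%). Whether the members exceed all genes at them is thus not known. Counting called sites within 1 kb of the gene gave no member a higher site either. The stricter cutoffs on the adjusted p and the fold change could not have added one.

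Over 15 settings at each of 7 sites, 105 in all, 87 stayed below p 0.05, 18 did not and 0 changed direction. The p was adjusted for limma and the quasi-Poisson test, and was the exact permutation p elsewhere. The pseudocount setting kept the p of the unchanged counts, so it could not lose any of the 7 sites. At Brd2, Tnrc18, Arid1a and Kat6b the groups were fully apart, so leaving libraries out could not lose or reverse them either. Their exact permutation p then stayed at its smallest possible value, 0.016 to 0.029 by the libraries left. With all libraries that value was 0.0095, so a p with fewer libraries is not on the same scale. The authors chose the sites on these same libraries, so the tally is no independent evidence. The median log2 ratio over the 7 sites was -1.19 and ran from -1.38 to -0.78 with 1 library left out. The lowest ratio with a library left out was -1.94 at Kat6b and the highest -0.22 at Tnrc18. The cause of these changes was not tested. No paired analysis was possible because the values in the table carry no replicate numbers.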
